A study of Mus musculus with 3 samples.

Results

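Smgc-high nuclei of the mouse submandibular gland were nuclei in which a secreted product of immature acinar cells, submandibular gland protein C (Smgc), made up an unusual share of the RNA. They were chosen by their own counts. A barcode with at least 500 detected genes and at most 5% mitochondrial counts was taken as Smgc-high when it held at least 3 Smgc UMIs (unique molecular identifiers, each standing for 1 captured RNA molecule) and when these were at least 0.2% of its UMIs. The rule found 84 nuclei of 27633, or 0.304%. The 3 libraries, 1 per group, came from frozen submandibular glands of wild-type (WT) mice. The first group was irradiated and given pilocarpine, a muscarinic agonist that drives saliva secretion, from day 30 to day 90, the second was irradiated and given saline, and the third had no treatment. The titles give 90 days after irradiation for both irradiated groups, and the protocol gives 93. Nuclei were stained with DAPI, sorted and read with a droplet kit that captures the 3′ ends of transcripts. How many mice a library holds is not given in the sources used here. With 1 library per group no difference between groups could be tested, and all intervals are 95% intervals that cover counting error only.

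The acini of this gland make a watery, protein-rich saliva, which passes through intercalated ducts into granular and striated ducts. In rodents, Smgc is a product of the proacinar and terminal tubule cells of the newborn gland, and in adults it persists in scattered cells where acini join the intercalated ducts. Muc19 is a gel-forming mucin gene of the sublingual gland and of other mucous cells that lies at the same locus.

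The 3 libraries were similar in depth. The median barcode held 2048 UMIs with irradiation + pilocarpine, 2113 with irradiation + saline and 1536 without irradiation. Xist, the RNA of the inactive X chromosome, was between 1083 and 1172 CPM (a gene's UMIs scaled to a common library total) in the 3 libraries, and genes of the Y chromosome had 8 to 11 UMIs in each. Pairs of libraries shared 28 to 33 barcodes, none of which was Smgc-high.

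Smgc and Muc19 begin almost at the same base. In the GENCODE annotation of GRCm38, Smgc lies on the plus strand at chr15:91838265-91861438 and Muc19, on the same strand, at chr15:91838326-91934555. They share 95 exonic bases, 2.79% of the exonic bases of Smgc and 1.04% of those of Muc19, and reads from introns in the stretch that both genes cover cannot be told apart. The sequence before the RefSeq start of Smgc (GRCm38.p6, plus strand, chr15:91838078-91838327, 250 bases) is shown because both genes that mark the nuclei begin in or next to it. The GENCODE start of Smgc lies inside this window, and that of Muc19 lies at its end. Capitals mark matches to 2 motifs, a TATA box (TATAAA) that begins 30 bases before the start and a forkhead motif (TGTTTAC) that begins 99 bases before it.
Smgc: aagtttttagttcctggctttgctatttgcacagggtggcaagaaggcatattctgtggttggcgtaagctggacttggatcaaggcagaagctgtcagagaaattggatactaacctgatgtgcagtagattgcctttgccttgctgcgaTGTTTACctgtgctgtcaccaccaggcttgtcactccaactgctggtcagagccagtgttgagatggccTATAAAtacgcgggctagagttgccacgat
Both motifs were searched on both strands, and they do not overlap here. Of 32851 windows of the same length before RefSeq starts, 12.4% held TATAAA and 3.17% held TGTTTAC. These matches describe the letters and are no evidence of binding.

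Smgc counts fell into 2 ranges with little between them. No Smgc UMI was found in 26201 barcodes, 1316 barcodes had 1 or 2, 16 had 3 or 4, 6 had 5 to 14 and 94 had 15 or more. Of the 94, 18 lay under the 0.2% share, and these had a median of 45581.5 UMIs. The Smgc-high nuclei themselves included 5 with 3 or 4 Smgc UMIs. Just inside the rule, 1 nucleus had 32 Smgc UMIs among 15837 (0.202%) and 1 had 3 among 1406 (0.213%), and just outside it barcodes had 89 among 45059 (0.198%) and 3 among 1522 (0.197%).

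**Figure D1:**
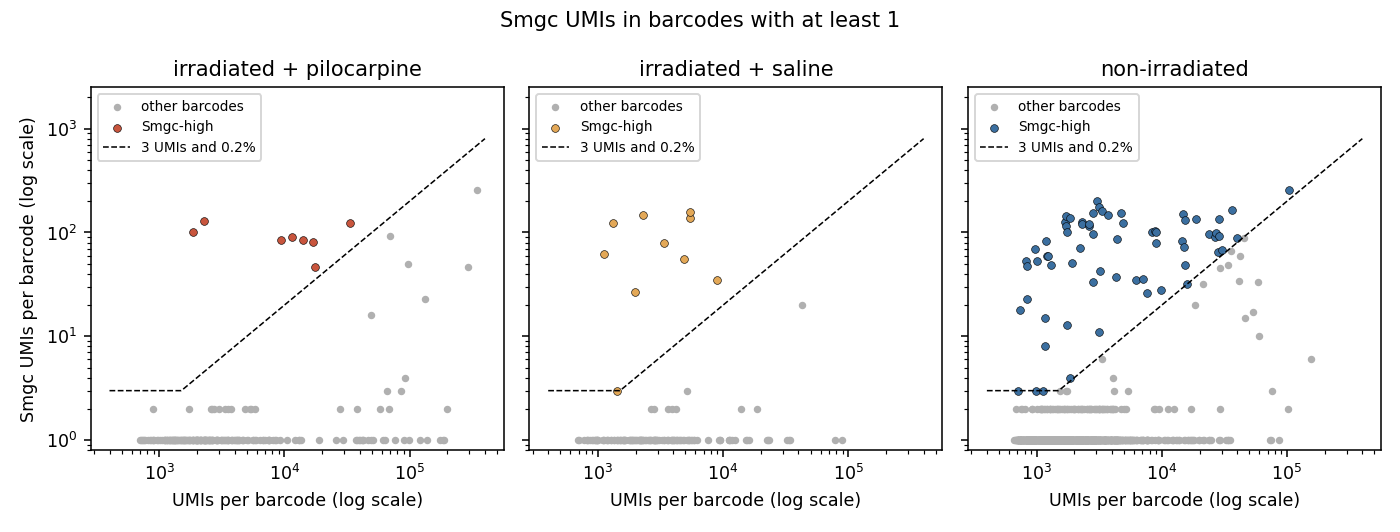
Smgc UMIs (y axis, log scale) against all UMIs (x axis, log scale) of each barcode with at least 1 Smgc UMI, 1 panel per library, with Smgc-high nuclei coloured and the rule drawn as a dashed line. Most grey barcodes lie at 1 or 2 Smgc UMIs, and a second group of very deep barcodes lies just right of the line; 8, 10 and 66 nuclei lie on or above it in the irradiated + pilocarpine, irradiated + saline and non-irradiated panels.

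Low Smgc counts were spread over all cell types. After each barcode was thinned to 1000 UMIs, Smgc was seen in 0.882% of acinar-like nuclei and in 1.23% of fibroblast-like nuclei of the irradiated + pilocarpine library, in 0.619% and 0.227% of those of the irradiated + saline library, and in 5.56% and 6.01% of those of the non-irradiated library. Unthinned, acinar-like nuclei with Smgc were 2.08% of the irradiated + pilocarpine library (median 2194 UMIs), 1.53% of the irradiated + saline library (2484.5 UMIs) and 9.14% of the non-irradiated library (1509 UMIs). In fibroblast-like nuclei the unthinned shares were 1.79% (1523.5 UMIs), 1.25% (1657 UMIs) and 11.0% (1278.5 UMIs) in the same libraries. Fibroblasts do not make salivary secretions, so these levels are read here as background from free RNA, and 1 or 2 UMIs were not taken as Smgc expression.

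Smgc-high nuclei were fewer in both irradiated libraries. They numbered 8 of 8376 barcodes in the irradiated + pilocarpine library (0.0955%, Clopper-Pearson interval 0.0412 to 0.188%), 10 of 8622 in the irradiated + saline library (0.116%, 0.0556 to 0.213%) and 66 of 10635 in the non-irradiated library (0.621%, 0.480 to 0.789%). The intervals of the irradiated libraries overlap each other, and both lie below that of the non-irradiated library. A difference between 2 libraries cannot be told apart from one between the glands they came from. Thinning every barcode to 1000 UMIs left 8 of 7366, 9 of 7444 and 52 of 8414 barcodes in the same order. With a minimum of 15 Smgc UMIs and no share, a rule chosen after seeing the data, there were 14, 10 and 70 barcodes.

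The RNA totals of whole libraries ran the same way. For Smgc they are not independent of the rule, since they hold the UMIs that it selects on. Smgc was at 43.4 CPM in the irradiated + pilocarpine library, 33.9 CPM in the irradiated + saline library and 278 CPM in the non-irradiated library. The Smgc-high nuclei held 50.9%, 83.6% and 77.8% of these Smgc UMIs. Muc19 was scarce, at 1.53 CPM in the irradiated + pilocarpine library, 0.994 CPM in the irradiated + saline library and 5.01 CPM in the non-irradiated library. In the Smgc-high nuclei it was seen as a median of 1 UMI in each library, with 2 of 8, 4 of 10 and 23 of 66 nuclei having none. In sums over a library, fewer such cells and less of the RNA per cell cannot be told apart.

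Among the Smgc-high nuclei the number of Smgc UMIs was similar across libraries. It had a median of 87 (46 to 129) in the irradiated + pilocarpine library, 70.5 (3 to 158) in the irradiated + saline library and 82.5 (3 to 254) in the non-irradiated library. As a share of UMIs, Smgc had a median of 0.691% (0.262 to 5.64%) with pilocarpine, 2.46% (0.213 to 9.31%) with saline and 1.19% (0.202 to 8.43%) without irradiation. The ranges of the 3 libraries overlap.

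The nuclei differed in depth more than in Smgc. Of the 84, 34 had 5000 UMIs or more, 6 of 8 with irradiation + pilocarpine, 3 of 10 with irradiation + saline and 25 of 66 without irradiation. These deep barcodes gave 96.1%, 54.7% and 86.2% of all UMIs in the sums. Smgc had a median of 89 UMIs in the deep nuclei and 70 in the shallower ones, so its share had a median of 0.479% in deep and 4.20% in shallower nuclei. Tll1 was at 1741 CPM in the deep and 16172 CPM in the shallower nuclei, and Col11a1 at 493 CPM and 3640 CPM. Egf, a granular duct product, was at 1842 CPM in the deep nuclei against 811 CPM in the shallower ones. Whether the deep barcodes hold RNA of more than 1 nucleus was not tested. The doublet caller made 0 calls in each library, so it was not relied on and doublets stayed in. The highest doublet scores, 5.53%, 5.29% and 5.78% of all barcodes, took in 2 of 8, 1 of 10 and 1 of 66 Smgc-high nuclei of the irradiated + pilocarpine, irradiated + saline and non-irradiated libraries. For this reason the sums are given below with all nuclei and, as a choice made after seeing the data, with the 50 nuclei under 5000 UMIs, of which 2 were from the irradiated + pilocarpine library, 7 from the irradiated + saline library and 41 from the non-irradiated library.

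**Figure D2:**
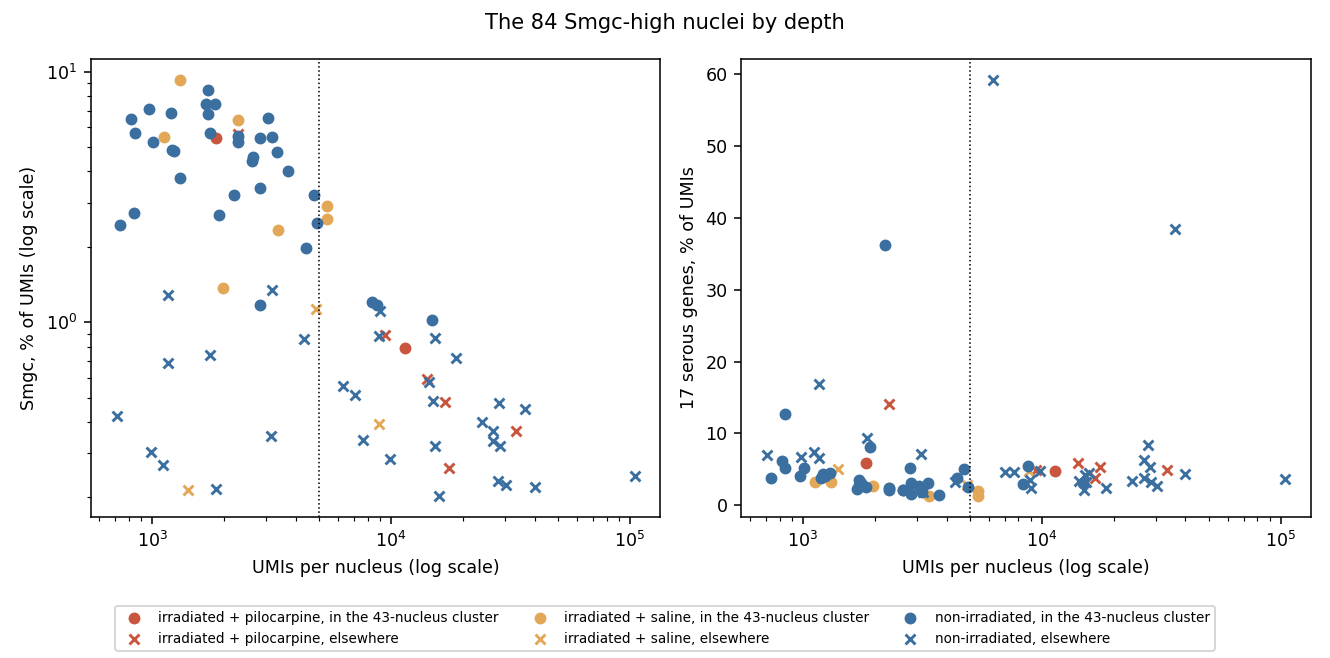
Each of the 84 Smgc-high nuclei by its UMIs (x axis, log scale), with Smgc as a percent of UMIs (left, log scale) and 17 serous genes summed as a percent of UMIs (right); filled points are the 43 nuclei of a cluster of their own, crosses lie in other clusters, colours are libraries and the dotted line is 5000 UMIs. Of 37 nuclei with Smgc above 2%, 2 lie right of the line, and 3 non-irradiated nuclei stand apart with 36.2% to 59.2% serous UMIs.

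A part of the Smgc-high nuclei formed a group of its own without help from Smgc. Nuclei were clustered on variable genes from which Smgc and Muc19 had been removed. At Leiden resolution 2 (a setting for how finely the graph is split), 1 of 31 clusters had 43 nuclei, and all 43 were Smgc-high, 2 of them from the irradiated + pilocarpine library, 7 from the irradiated + saline library and 34 from the non-irradiated library. They had a median of 2288 UMIs and a median Smgc share of 4.79%, against 9877 UMIs and 0.423% in the other 41 Smgc-high nuclei. The leading genes of this cluster were Smgc, Tll1, Col11a1, Muc19, Unc5c, Sncaip and Edil3. At resolution 1, 48 of the 84 nuclei (57.1%) shared a cluster of 157 with 109 other nuclei, none of which had 3 Smgc UMIs. Those 109 carried proliferation genes. The 20 genes of that list summed to 3526 CPM in them in the irradiated + pilocarpine library, 4726 CPM in the irradiated + saline library and 3575 CPM in the non-irradiated library, against 37.4, 27.7 and 108 CPM in the Smgc-high nuclei and 30.2, 29.0 and 26.7 CPM among acinar-like ones. Of the remaining Smgc-high nuclei 18 lay in an unnamed cluster with a median of 10189 UMIs. Its leading genes included Eepd1, Tmem163, Scnn1b, Kcnq1 and Wnt4. Acinar-like clusters held 4, the ionocyte-like cluster 3, the Schwann-like 3, the macrophage-like 2 and the myoepithelial-like 1. The rest lay in other unnamed clusters.

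The 5 nuclei with 3 or 4 Smgc UMIs lacked the companions of the others. None of them had a UMI of Tll1 or Col11a1, whereas 77 of the other 79 had at least 1 of these genes. In all, 75 nuclei had Tll1, 68 had Col11a1, 66 had both and 7 had neither.

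The working label of these nuclei, intercalated or proacinar, was only in part borne out by its markers. Of 15 intercalated duct and proacinar genes, Dcpp2 and Dcpp3 had 0 UMIs, and 9 had at least 20. Kit, the receptor tyrosine kinase that marks adult intercalated duct cells, was at 74.8 CPM in Smgc-high nuclei of the irradiated + pilocarpine library, 83.2 CPM in those of the irradiated + saline library and 26.7 CPM in those of the non-irradiated library. Another cluster, led by Dclk1, Slc9a3 and Wnt5b, had Kit at 310, 475 and 302 CPM in the same order, and it held 1 Smgc-high nucleus. Acinar-like nuclei had 2.66, 2.49 and 3.33 CPM. In nuclei thinned to 1000 UMIs, Kit was seen in 0 of 8, 0 of 10 and 1 of 59 Smgc-high nuclei, against 42 of 193, 59 of 164 and 23 of 92 nuclei of the Dclk1 cluster. It was not particular to that cluster, since 39 of 123, 113 of 383 and 67 of 222 ionocyte-like nuclei had it.

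Of the other genes of this list, Foxc1 and Sox9 were lower than in the Dclk1 cluster in each library, and the keratins varied. Foxc1, a forkhead factor, was at 74.8, 55.5 and 50.2 CPM in Smgc-high nuclei against 64.3, 69.2 and 55.7 CPM in the acinar-like ones and 214, 274 and 205 CPM in the Dclk1 cluster. Sox9, a progenitor factor, was at 178, 83.2 and 83.2 CPM against 112, 106 and 88.3 CPM in the acinar-like ones and 267, 418 and 270 CPM in the Dclk1 cluster. Elf5 was at 74.8, 111 and 89.5 CPM against 150, 139 and 167 CPM in acinar-like nuclei, and Sox10 at 196, 27.7 and 86.3 CPM against 216, 188 and 127 CPM. Krt7, a duct keratin, was at 9.35, 83.2 and 48.7 CPM against 3.71, 3.64 and 4.25 CPM. Krt8 was at 112, 111 and 43.9 CPM against 60.0, 54.8 and 47.3 CPM, Krt18 at 84.2, 194 and 89.5 CPM against 116, 101 and 85.2 CPM, and Ngef at 93.5, 55.5 and 78.5 CPM against 89.1, 91.0 and 106 CPM. All these values follow the order of libraries above. In the irradiated + saline sum 1 UMI makes 27.7 CPM and 3 UMIs make 83.2 CPM. In the irradiated + pilocarpine sum 3 UMIs make 28.1 CPM. Values near these, for Kit above and in the lists below too, rest on few UMIs. No proacinar or intercalated name was given to the nuclei, which are called Smgc-high.

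The mucous programme was not raised with Smgc. Of 21 genes of mucin synthesis and mucous cells, Galnt6, Gcnt3, B3gnt6, Ern2, Tff2, Muc5b, Bpifb2 and Fut2 had 0 UMIs in the Smgc-high nuclei. St3gal1, which adds sialic acid to mucin-type glycans, was at 1497, 472 and 1646 CPM in Smgc-high nuclei against 2599, 2490 and 2981 CPM in acinar-like nuclei. Creb3l1, a factor of secretory capacity, was at 440, 166 and 353 CPM against 743, 780 and 701 CPM. Both were at least 1.5-fold lower in 3 of 3 libraries, out of 4 genes with enough UMIs, whose median log2 ratio was -0.83 (-2.91 in nuclei under 5000 UMIs) against -0.06 over all genes measured. Of all genes measured, 3.19% were lower by this rule. Spdef, a factor of goblet and mucous cells, was at 140, 27.7 and 218 CPM against 236, 223 and 282 CPM. Galnt3 was at 505, 166 and 261 CPM against 620, 652 and 458 CPM, Galnt7 at 1235, 694 and 1031 CPM against 1509, 1524 and 1679 CPM, and C1galt1 at 196, 27.7 and 81.6 CPM against 149, 169 and 135 CPM.

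Comparison with acinar-like nuclei, the most numerous epithelial type here, was made within each library by the ratio of summed CPM. It is a description, since the nuclei were chosen from the same counts. With Smgc and Muc19 left out, 1440 genes had enough UMIs. Of these, 86 (5.97%) were at least 1.5-fold higher in Smgc-high nuclei in 3 of 3 libraries and 46 (3.19%) at least 1.5-fold lower. Tll1 encodes a tolloid metalloprotease that processes procollagens and chordin. It was at 1506 CPM in Smgc-high and 1.85 CPM in acinar-like nuclei of the irradiated + pilocarpine library, 11709 and 1.51 CPM in the irradiated + saline library, and 3674 and 13.1 CPM in the non-irradiated library. Col11a1, a chain of type XI collagen, was at 281 and 0.386 CPM, 1332 and 0.178 CPM, and 1017 and 4.18 CPM in the same order. The lowest of the 3 ratios, in the non-irradiated library, was 281 for Tll1 (interval 240 to 330) and 243 for Col11a1 (184 to 328).

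Tll1 was not confined to Smgc-high nuclei. After thinning to 1000 UMIs it was seen in 13.2%, 22.2% and 12.9% of endothelial-like nuclei, in the same order of libraries. In Smgc-high nuclei it was seen in 75%, 90% and 74.6%. The other genes ranked highest, Col11a1 aside, were each also seen in some other cell type. In nuclei thinned to 1000 UMIs, Grip1 was seen in 30.4% to 34.2% of the Dclk1 cluster, where it was at 455, 623 and 474 CPM against 206, 277 and 146 CPM in Smgc-high nuclei. Fibroblast-like nuclei had Ank2 in 49.3% to 55.1% and Sema3a in 37.7% to 48.1%, and macrophage-like nuclei had Tnfaip8 in 7.04% to 20.1%. In duct-like nuclei these 4 genes were seen in at most 4.15%. Tmem117, Tmem163, Eepd1 and Plxna4 were seen in 45.9% to 77.9% of them and Cttnbp2 in 27.5% to 35.2%. Ionocyte-like nuclei had Plxna4 in 71.5% to 84.1%, Tmem117 in 67.1% to 85.1% and Cttnbp2 in 27.6% to 35.0%. Grip1, a PDZ scaffold, was 157-fold, 74.4-fold and 72.6-fold higher than in acinar-like nuclei of the irradiated + pilocarpine, irradiated + saline and non-irradiated libraries. Tnfaip8 was 55.0-fold, 195-fold and 56.6-fold higher, Ank2, an ankyrin that anchors membrane proteins, 45.4-fold, 244-fold and 28.8-fold, Sema3a, an axon guidance cue, 28.8-fold, 164-fold and 16.1-fold, and Cttnbp2 22.3-fold, 64.0-fold and 14.3-fold. Eepd1, Tmem163, Plxna4 and Tmem117 were between 17.5-fold and 76.7-fold higher. In the 41 non-irradiated nuclei under 5000 UMIs these last 4 genes were closer to acinar-like nuclei. Eepd1 was at 9.25-fold, Tmem163 at 4.93-fold, Plxna4 at 4.57-fold and Tmem117 at 7.54-fold. Tll1 was then at 1344-fold, Col11a1 at 1006-fold and Grip1 at 311-fold.

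Among the 8 genes named on the lower side were acinar secretory products and surface proteins. Car6, secreted carbonic anhydrase, was 1.79-fold, 4.66-fold and 1.69-fold lower in Smgc-high than in acinar-like nuclei of the irradiated + pilocarpine, irradiated + saline and non-irradiated libraries. Prol1, a secreted proline-rich protein, was 1.74-fold, 5.35-fold and 1.89-fold lower. Dgkg, a diacylglycerol kinase, was 1.90-fold, 6.56-fold and 1.91-fold lower. St3gal1, Neat1, Slc12a8 and Cd44 were between 1.61-fold and 5.28-fold lower. Dpp4 was 2.14-fold and 1.68-fold lower with irradiation + pilocarpine and without irradiation, and had 1 UMI in the irradiated + saline nuclei.

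Serous acinar RNA was present in every Smgc-high nucleus. The 17 genes of this list summed to a median of 5.09% of UMIs per nucleus (3.79 to 14.04%) in the irradiated + pilocarpine library, 2.76% (1.27 to 5.12%) in the irradiated + saline library and 3.79% (1.41 to 59.2%) in the non-irradiated library. Acinar-like nuclei had medians of 8.10%, 7.44% and 6.73%, and fibroblast-like nuclei, which do not make these products, held 5.34%, 3.16% and 4.59% of their summed UMIs in the list. Mucl2, the most abundant of these products, was at 37602, 23695 and 56475 CPM in Smgc-high nuclei against 55148, 57637 and 47993 CPM in acinar-like nuclei. The high non-irradiated value rested on 3 nuclei with over 30% serous UMIs, without which Mucl2 was at 31313 CPM and the list at 4.07% in place of 6.68% of the summed UMIs. Of 8 list genes with enough UMIs none was higher and 3 were lower in 3 of 3 libraries, against 3.19% lower among all genes measured. Their median log2 ratio was -0.80, or -1.52 in nuclei under 5000 UMIs, and that of all genes was -0.06. Smr3a, Prpmp5, Dmbt1, Cst10, Rbpjl and Ttr had 0 UMIs.

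Of the remaining serous genes, Pip, Lpo, Oit1 and Aqp5 were lower than in acinar-like nuclei in each library. Bhlha15 was about equal with pilocarpine and lower in the irradiated + saline and non-irradiated libraries. Amy1 was higher in the irradiated + saline and non-irradiated libraries, and its pilocarpine value lies under the level of 3 UMIs (28.1 CPM in that sum). In the irradiated + saline sum 3 UMIs make 83.2 CPM, so values of 111 CPM rest on few UMIs. Pip was at 2301, 1415 and 1585 CPM in Smgc-high nuclei against 3870, 4210 and 1927 CPM in acinar-like nuclei, and Lpo, a secreted peroxidase, at 337, 111 and 235 CPM against 611, 640 and 466 CPM. Oit1 was at 589, 250 and 443 CPM against 684, 626 and 930 CPM. Aqp5, the water channel of acinar cells, was at 215, 111 and 151 CPM against 264, 231 and 218 CPM, and Bhlha15, the acinar maturation factor Mist1, at 159, 111 and 92.6 CPM against 161, 185 and 178 CPM. Amy1 was at 18.7, 139 and 42.4 CPM against 14.4, 13.1 and 13.8 CPM, and Pigr at 18.7, 0 and 45.5 CPM against 24.3, 13.9 and 49.4 CPM.

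Granular duct genes were above acinar-like levels. Of 6 with enough UMIs, 5 were higher in 3 of 3 libraries, against 5.97% of all genes measured, with a median log2 ratio of 2.11, or 1.17 in nuclei under 5000 UMIs. Egf was at 1422, 1415 and 1761 CPM in Smgc-high nuclei against 287, 302 and 352 CPM in acinar-like nuclei, and at 784 CPM in the non-irradiated nuclei under 5000 UMIs. The 24 genes of the list summed to 0.399%, 0.885% and 0.668% of UMIs in Smgc-high nuclei, 1.98%, 3.08% and 2.09% in duct-like nuclei and 0.121%, 0.129% and 0.134% in acinar-like nuclei. The level was not particular to Smgc-high nuclei. Macrophage-like nuclei held 0.459%, 1.27% and 0.525%, and ionocyte-like nuclei 0.377%, 1.03% and 0.532%. Fibroblast-like, myoepithelial-like and endothelial-like sums were lower than the Smgc-high ones in each library. In the non-irradiated nuclei under 5000 UMIs the sum was 0.315%, against 0.328% in endothelial-like nuclei. Ren1 had 0 UMIs. The part of deep barcodes and of free RNA in these values was not tested.

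Receptors and ion transport genes were largely at acinar-like levels. Chrm3, the muscarinic receptor that pilocarpine activates in salivary acini, was at 3115, 3080 and 3004 CPM in Smgc-high nuclei against 3674, 3788 and 3970 CPM in acinar-like nuclei. Of 15 genes of secretagogue receptors and calcium signalling with enough UMIs, 4 were higher in 3 of 3 libraries and none was lower, against 5.97% higher and 3.19% lower among all genes measured. Of these 4, Itpr1, a calcium release channel, was 2.27-fold, 3.52-fold and 3.22-fold higher and remained 3.60-fold higher in the non-irradiated nuclei under 5000 UMIs. Adra1a, an adrenergic receptor, was 5.97-fold, 21.5-fold and 5.78-fold higher but 1.05-fold in those nuclei, Plcb1 22.9-fold, 47.5-fold and 9.23-fold but 1.47-fold, and Itpr2 2.35-fold, 1.91-fold and 2.12-fold but 0.858-fold. Among 11 fluid secretion genes 1 was higher and 1, Cldn10, which forms tight junctions, was lower in 3 of 3 libraries, at 617, 166 and 432 CPM against 956, 743 and 818 CPM. Slc12a2, the chloride uptake carrier of acini, was at 2787, 2664 and 2404 CPM against 3043, 2997 and 2798 CPM.

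Of 9 glandular transcription factors with enough UMIs, Tfcp2l1 was higher and Creb3l1 lower in 3 of 3 libraries. Among all genes measured 5.97% were higher and 3.19% lower. The counts for this list and for those that follow here are too small to be told apart from these shares. Tfcp2l1, which is known from duct cells, was at 767, 2303 and 1427 CPM in Smgc-high nuclei against 83.2, 82.3 and 123 CPM in acinar-like nuclei. It was at 2589 CPM in the non-irradiated nuclei under 5000 UMIs, so its ratio there was 21.1. None of 9 genes of the unfolded protein response and secretory pathway passed 1.5-fold in 3 of 3 libraries. Of the ErbB list, Egf alone did so among 3 measured, and of the progenitor and duct plasticity list neither of 2 measured, Itga6 and Fgfr2. Among members of that list with fewer UMIs, Fgfr1 was at 37.4, 27.7 and 40.8 CPM against 2.39, 2.66 and 1.93 CPM.

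Genes that stood above every other cluster were sought in the nuclei under 5000 UMIs of the irradiated + saline and non-irradiated libraries, a comparison added after seeing the data. The 2 such nuclei of the irradiated + pilocarpine library were too few to enter it. Of 668 genes with at least 5 UMIs in each library, 21 (3.14%) were at least 1.5-fold above the highest other cluster in both. The minimum was set on the Smgc-high nuclei, so scarce genes could enter only where these nuclei were high, and the count is a description. Tll1 was at 11815 CPM in the irradiated + saline nuclei, where the highest other cluster, endothelial-like, had 248 CPM. In the non-irradiated nuclei it was at 17568 CPM, where the highest other cluster, lymphatic endothelial-like, had 1127 CPM. Col11a1 was at 1530 CPM where the highest other cluster had 52.2 CPM, and at 4202 CPM where it had 12.6 CPM.

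Dcc and Unc5c, which encode netrin receptors, were in this group with few UMIs. Dcc had 6 UMIs in the irradiated + saline and 29 in the non-irradiated nuclei, or 367 and 329 CPM, with at most 6.72 and 4.20 CPM in any other cluster. Unc5c was at 367 and 466 CPM, against 60.3 and 61.4 CPM in the myoepithelial-like cluster, the highest of the others. Prlr, the prolactin receptor, was at 1469 and 2010 CPM against 439 and 243 CPM, and was seen in 41 of the 50 nuclei.

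Kitl, the ligand of Kit, was at 2143 CPM in the irradiated + saline nuclei and 1351 CPM in the non-irradiated nuclei, and was seen in 36 of the 50. The next cluster in both libraries was myoepithelial-like, at 948 and 667 CPM. Mast4, a kinase bound to microtubules, was at 2265 and 2101 CPM against 1153 and 979 CPM. Cdk19, a kinase of the Mediator complex, was at 1163 and 772 CPM against 512 and 459 CPM, and Phyh, a peroxisomal hydroxylase, at 429 and 375 CPM against 148 and 168 CPM. For 9 of the 21, among them Trps1, Cux1 and Furin, the interval of the ratio reached below 1 in at least 1 library.

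**Figure D3:**
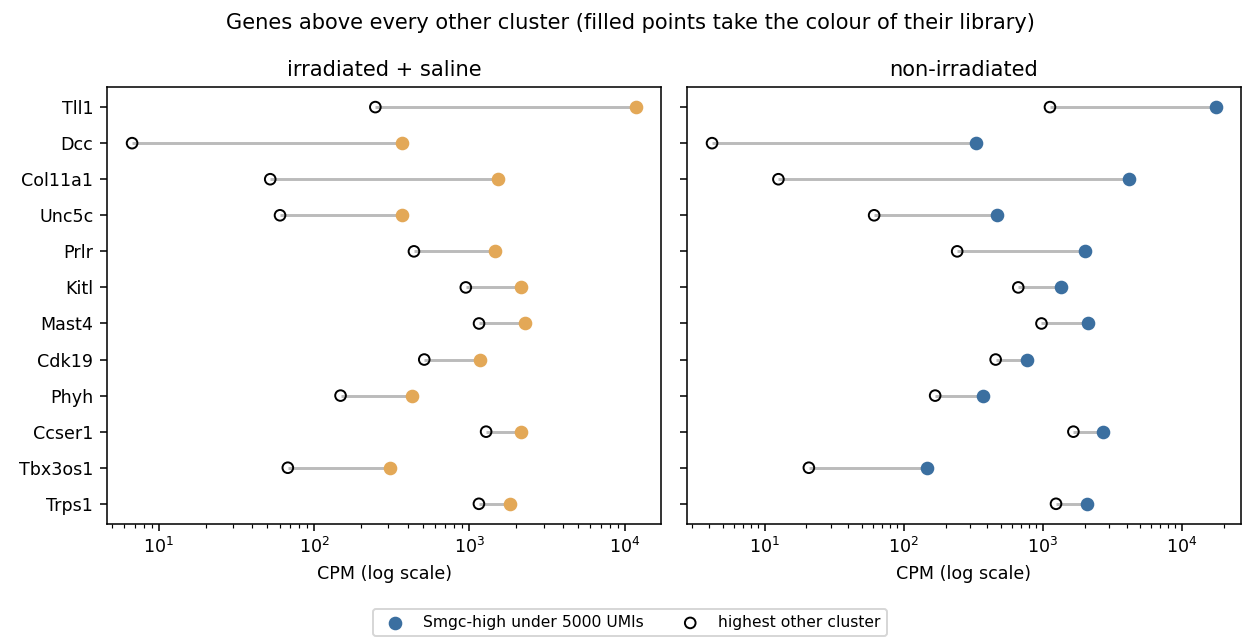
CPM (x axis, log scale) of the 12 named genes whose lower interval bounds against the highest other cluster were largest, in Smgc-high nuclei under 5000 UMIs (filled points) and in the highest other cluster (open circles), for the irradiated + saline (left) and non-irradiated (right) libraries. Tll1, Dcc and Col11a1 have the widest gaps, with Tll1 at 11815 and 17568 CPM, and the remaining gaps are narrower.

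Tll1 gave a choice of nuclei that does not use Smgc. With the same thresholds put on Tll1, 13 barcodes of the irradiated + pilocarpine library (0.155%, 0.0827 to 0.265%), 16 of the irradiated + saline library (0.186%, 0.106 to 0.301%) and 53 of the non-irradiated library (0.498%, 0.374 to 0.651%) passed. Of these, 3, 8 and 44 were also Smgc-high. Of the other 27, 25 had no Smgc UMI. Tll1 was also seen in endothelial-like nuclei, as given above, and the cell type of these 27 was not tested. Tll1 over whole libraries was at 19.5 CPM with pilocarpine, 22.7 CPM with saline and 117 CPM without irradiation, and Col11a1 at 3.93, 2.26 and 31.3 CPM. Tll1 was picked for its level in Smgc-high nuclei, so its order across libraries is not independent of theirs. Within the Smgc-high nuclei the shares of Smgc and Tll1 had a Spearman correlation of 0.19, 0.90 and 0.73 over 8, 10 and 66 nuclei of the same libraries, which share each nucleus's UMI total.

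**Figure D4:**
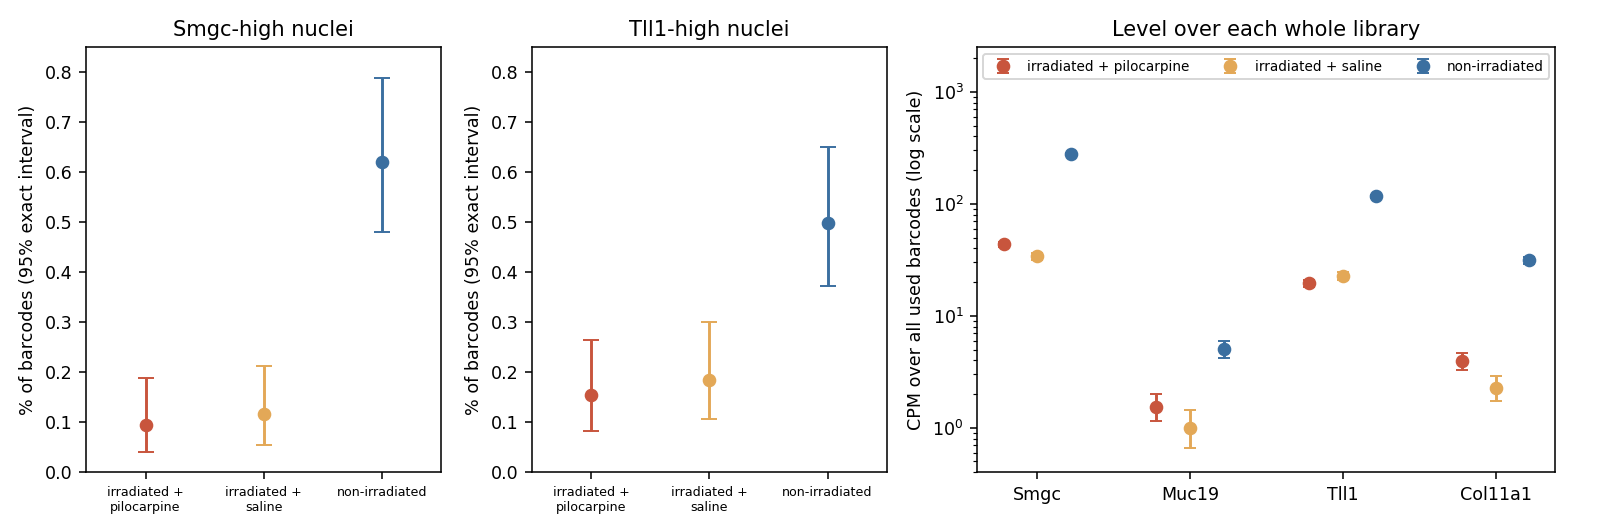
Smgc-high nuclei (left) and nuclei past the same thresholds for Tll1 (middle) as a percent of barcodes with exact 95% intervals, and CPM of 4 genes over all used barcodes with exact 95% Poisson intervals (right, log scale), by library. Both shares and all 4 levels are highest in the non-irradiated library, where Smgc-high nuclei are 0.621% of barcodes.

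Levels within the Smgc-high nuclei were then set side by side between libraries, with depth differing as given above. Between irradiated + saline and non-irradiated nuclei 1427 genes could be compared, and 200 (14%) were at least 1.5-fold higher and 312 (21.9%) at least 1.5-fold lower with irradiation. Tll1 was 3.19-fold higher over all nuclei (interval 2.87 to 3.54). In nuclei under 5000 UMIs its direction turned, at 11815 CPM in irradiated + saline and 17568 CPM in non-irradiated nuclei. Kitl was at 1276 CPM in irradiated + saline and 363 CPM in non-irradiated nuclei, and at 2143 and 1351 CPM in those under 5000 UMIs. Astn2 was at 832 and 215 CPM, and at 1102 and 840 CPM under 5000 UMIs, and Kirrel3, a cell adhesion protein, at 888 and 278 CPM, and at 1163 and 772 CPM. Angpt1, an angiopoietin, was at 638 and 135 CPM, but 19 of its 23 irradiated + saline UMIs were in 1 nucleus. Kif26b, which the naming rule also picked, had too few UMIs to be compared.

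On the lower side Mucl2 was at 23695 CPM in irradiated + saline and 56475 CPM in non-irradiated nuclei, 2.38-fold lower, and not past 1.5-fold once the 3 non-irradiated nuclei with over 30% serous UMIs were left out. Dgki, Zzef1, Hnrnpm and March6 had 0 UMIs in the irradiated + saline nuclei. Against the limit of 3 UMIs summed over these nuclei (83.2 CPM) they were at least 3.11-fold, 2.72-fold, 2.51-fold and 2.11-fold lower. The exact intervals, which also count the error of the other library, began at 2.502-fold, 2.18-fold, 2.01-fold and 1.69-fold. In non-irradiated nuclei under 5000 UMIs these genes were at 90.8, 250, 90.8 and 204 CPM (8, 22, 8 and 18 UMIs). In the irradiated + saline sum under 5000 UMIs 3 UMIs make 184 CPM, so none of these genes is past 1.5-fold against that limit. Of 7 serous genes that could be compared, 5 were lower and none higher, with a median log2 ratio of -1.08, or -0.47 in nuclei under 5000 UMIs. The 3 mitochondrially encoded genes that could be compared were all lower, with a median of -1.92, or -0.37 under 5000 UMIs.

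Between irradiated + pilocarpine and irradiated + saline nuclei 1517 genes could be compared, with 383 (25.2%) at least 1.5-fold higher and 287 (18.9%) at least 1.5-fold lower with pilocarpine. Tll1 was at 1506 CPM with pilocarpine and 11709 CPM with saline, 7.78-fold lower, and at 3632 and 11815 CPM in nuclei under 5000 UMIs. Col11a1 was 4.75-fold lower and Kitl 5.05-fold lower. Under 5000 UMIs Kitl was at 1453 and 2143 CPM, no longer past 1.5-fold. Slit2, a guidance cue, was 3.86-fold and Tmcc3 4.18-fold lower, and both are among the leading genes of the duct-like cluster. The order was not particular to Smgc-high nuclei. All other nuclei of the 2 libraries had Slit2 at 795 CPM with pilocarpine and 2629 CPM with saline, and Tmcc3 at 470 and 1364 CPM. Dgki had 62 UMIs with pilocarpine and 0 with saline, at least 6.97-fold higher against the limit of 3 UMIs (exact interval from 5.50), and 25 of the 62 were in 1 nucleus of the ionocyte-like cluster, whose leading genes include Dgki and Pde1c. Gne, the first enzyme of sialic acid synthesis, was at 1122 and 361 CPM, Tshz2 at 1992 and 777 CPM, Mad1l1 at 514 and 27.7 CPM, Pde1c at 458 and 83.2 CPM and Frmd4b at 449 and 83.2 CPM. For each of these 5 genes 1 nucleus held between 30.9% and 43.8% of the UMIs with pilocarpine. In nuclei under 5000 UMIs Tshz2 was at 484.3 and 857.1 CPM, from 2 and 14 UMIs. Frmd4b had 0 UMIs with pilocarpine and 1 with saline there, too few to give a direction.

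Between irradiated + pilocarpine and non-irradiated nuclei 4241 genes could be compared, with 568 (13.4%) at least 1.5-fold higher and 741 (17.5%) at least 1.5-fold lower with pilocarpine. Col11a1 was at 281 CPM with pilocarpine and 1017 CPM without irradiation, 3.62-fold lower, and Tll1 was 2.44-fold lower. Tmcc3 was 2.85-fold and Slit2 2.42-fold lower. Both were also lower with pilocarpine in all other nuclei, with Tmcc3 at 470 and 722 CPM and Slit2 at 795 and 1117 CPM. Nsun7 had 0 UMIs with pilocarpine, at least 3.19-fold lower against the limit of 3 UMIs (exact interval from 2.51). On the higher side Csmd1 was 3.97-fold higher, with 30 of its 36 UMIs in 1 nucleus of the Schwann-like cluster, which Csmd1 helps to define. Fhod3 was 4.03-fold higher, with 11 of 23 UMIs in 1 nucleus of that cluster, and Myh11, smooth muscle myosin, 3.79-fold, with 8 of 21 UMIs in 1 nucleus of the myoepithelial-like cluster. The part of these nuclei in the results was not tested. H2-K1, a class I histocompatibility chain, was at 514 and 152 CPM, and Dhrs4 at 262 and 73.8 CPM. None of these 5 genes had a UMI in the 2 irradiated + pilocarpine nuclei under 5000 UMIs.

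Of 7 interferon genes that could be compared between irradiated + pilocarpine and non-irradiated nuclei, 5 were higher and 1, Rsad2, was lower, with a median log2 ratio of 1.09 against -0.01 over all genes compared. In acinar-like nuclei of the same libraries H2-K1 was 2.93-fold higher. The 7 mitochondrially encoded genes that could be compared were all lower, with a median of -2.199, and this direction turned in nuclei under 5000 UMIs. All 3 comparisons share libraries with each other, and the pilocarpine values rest on 6 deep nuclei and 2 shallower ones.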

How the data were processed

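Gene counts (UMIs per gene and barcode) were used as deposited by the authors, who made them with Cell Ranger 7.0.1 on GRCm38, per the submitters' processing notes; whether intron reads were counted is not given in the sources used here. Barcodes kept had 500 or more genes and no more than 5% mitochondrial UMIs (33358056, 29177212 and 25566617 UMIs in the irradiated + pilocarpine, irradiated + saline and non-irradiated libraries). They were clustered with scanpy 1.11.5 and leidenalg 0.10.2 on 3000 variable genes without Smgc, Muc19, mitochondrial, ribosomal, immunoglobulin and sex-linked genes (30 components, 15 neighbours, resolution 1 or 2). A cluster was called like a type when 3 or more of its markers were detected, their median level was 0.5 or more of that in the cluster where each was highest, and other types had no more markers among its leading genes. These names were rebuilt here. Acinar-like nuclei were 6 clusters.

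UMIs were summed per library and set of nuclei and divided by their total (CPM). Ratios carry exact conditional binomial intervals, shares Clopper-Pearson intervals and CPM Poisson intervals (scipy 1.17.1), all for counting error only. Against acinar-like nuclei a gene was measured when its UMIs in the Smgc-high nuclei plus those expected at the acinar-like level came to at least 10 in each library. Between libraries it was compared when at least 5 UMIs were expected in the smaller sum at equal levels. A call is 1.5-fold; list medians are log2 ratios of CPM + 1. Genes named were Smgc and Muc19, intercalated, mucous and serous list genes with at least 20 UMIs, the 12 most above and 8 most below acinar-like nuclei, the 6 most above and 6 most below between libraries (ranked by the interval bound nearest to 1, at least 50 UMIs, and a CPM in the higher library at least that of all other nuclei) and the extremes of other lists; others were chosen after their values were seen, as were all genes above every other cluster. The nuclei and gene lists were chosen with earlier results of these data known. The ratio code was tested on simulated data. Alternatives were other Smgc rules and gene minimums, another denominator and pseudocount, no UMI minimum, thinning, removal of the highest doublet scores, per-nucleus means, free RNA subtraction and, added after seeing the data, nuclei under 5000 UMIs, a rule of 15 Smgc UMIs and leaving out 3 nuclei rich in serous RNA. Some genes that the rule names are not reported here.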

Additional observations from a re-analysis of the deposited data

How the results depend on the processing

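No paired analysis was possible because every group is a single library. The share of Smgc-high nuclei in the non-irradiated library was 0.433% with at least 5 UMIs and 0.5%, 1.08% with at least 2 UMIs and 0.1%, and 0.918% with 1000 detected genes; it stayed above both irradiated libraries in every setting tried. Against acinar-like nuclei the genes higher and lower in 3 of 3 libraries numbered 889 and 3796 with no minimum, 4 and 16 after thinning to 1000 UMIs, 189 and 225 with free RNA subtracted, and 6 and 11 in nuclei under 5000 UMIs, against 86 and 46; 36 were higher under the stricter rule and 96 lower with the mean of per-nucleus CPM. Genes past 1.5-fold numbered 512 (irradiated + saline against non-irradiated), 670 (irradiated + pilocarpine against irradiated + saline) and 1309 (irradiated + pilocarpine against non-irradiated). In that order there were 12461, 8826 and 10380 with no minimum, 89, 88 and 63 after thinning, 1021, 1148 and 2977 with free RNA subtracted, and 201, 35 and 27 under 5000 UMIs; the last comparison had 648 under the stricter rule and 2007 with the per-nucleus mean. Fewer UMIs leave fewer genes to compare in thinned and shallower nuclei; the cause of the other moves was not tested.

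The sign of the log2 ratio turned in 17 values for single genes and lists that were past 1.5-fold. List medians nearer to 0 changed sign too, among them, under 5000 UMIs, irradiated + pilocarpine against non-irradiated nuclei, where the intercalated list was at -5.13, the secretory pathway list to -6.33 and the transcription factors to -5.62. Under 5000 UMIs the log2 ratios of irradiated + saline against non-irradiated nuclei became -0.57 for Tll1; of irradiated + pilocarpine against irradiated + saline nuclei -5.96 for Frmd4b, -0.82 for Tshz2, -0.016 for the mucous list and -4.27 for the progenitor list; and of irradiated + pilocarpine against non-irradiated nuclei -6.33 for Csmd1 and the Schwann list, -6.98 for H2-K1, -5.13 for Fhod3, -6.11 for Dhrs4 and Myh11, and 2.60 for mitochondrially encoded genes. These pilocarpine values rest on 2 nuclei with 4130 UMIs in all, against 88058 in the non-irradiated nuclei under 5000 UMIs. Frmd4b, Csmd1, H2-K1, Fhod3, Dhrs4 and Myh11 had 0 UMIs in the 2 nuclei. The non-irradiated nuclei had 7, 11, 3, 6 and 6 UMIs of the last 5 genes. At this depth 0 UMIs can occur at equal levels. The sizes of these ratios follow from the pseudocount of 1 CPM, and no reversal was shown. The list medians of -5.13, -6.33 and -5.62 have the same limit. After thinning, the granular duct list was 0.49 against irradiated + saline and 0.0082 against non-irradiated nuclei, and Fhod3 was -5.70. Under the stricter rule Csmd1 was -7.60. With 8 and 10 nuclei in the irradiated libraries, few genes had the UMIs to be compared.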
